A study of Oryza sativa Japonica Group with 9 samples.

Results

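The response of the osbzip23 mutant of rice to drought was read from 2 of the 9 libraries of the series, 1 RNA library from drought-stressed mutant seedlings and 1 from unstressed mutant seedlings. A gene was kept where at least 1 of these libraries had 10 or more reads, which left 22520 of the 55986 genes in the tables. The series asked how OsbZIP23 acts on abscisic acid (ABA) genes and drought-resistance genes. It also holds RNA from an OsbZIP23 overexpressor and from the wild type, and ChIP libraries that are not used here. The groups were the mutant under drought, the mutant under normal growth, the overexpressor under drought, the overexpressor under normal growth, wild-type ZH11 under drought and ZH11 under normal growth. ZH11 is the japonica variety Zhonghua 11. The mutant and the overexpressor lines were made in an earlier study by the same group, and the allele and the driving promoter are not given in the sources used here. Seedlings at the 4-leaf stage grew in soil in natural light, and stressed plants were taken once every leaf had rolled. Unstressed plants were taken at that same time, and all RNA came from the shoots. The number of plants behind a library is not given. With 1 library a group there is no replicate check, so every difference below compares libraries, and no p value is given.

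ABA is the hormone through which plants answer water loss. Its receptors, once bound, hold back the clade A protein phosphatases 2C (PP2C), which frees SnRK2 kinases to phosphorylate basic leucine zipper (bZIP) factors of the ABF type. Those factors bind ABA-responsive elements and switch on genes for late embryogenesis abundant (LEA) proteins, dehydrins and the PP2C themselves. OsbZIP23 is one of these rice factors, and rice lines lacking it are known to be less tolerant of drought and less sensitive to ABA.

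OsbZIP23 itself (LOC_Os02g52780), the mutated gene, had 1127.5 reads or 157 CPM in the mutant drought library, against 174 reads or 11.8 CPM in the mutant normal library. CPM are read numbers divided by library size and scaled with TMM, which sets libraries level on their typical gene. Transcript of the mutated gene was therefore read in both mutant libraries, and it was 13.3-fold higher under drought (95% counting interval 11.4–15.7). Beside ZH11, which had 478 CPM under drought and 32.4 CPM under normal growth, the mutant level was 33.0% under drought (30.9–35.2) and 36.5% under normal growth (30.5–43.6). A reading per gene does not show whether these transcripts are intact. All intervals here are exact Clopper-Pearson ranges that cover counting error only.

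Among leaf marker genes, RbcS (LOC_Os12g17600), a small subunit of Rubisco, had 83.0 CPM in mutant drought and 7717 CPM in mutant normal, while Rca (LOC_Os11g47970), which encodes Rubisco activase, had 2219 CPM in mutant drought and 935 CPM in mutant normal. The 3 root markers together had 3.70 CPM in mutant drought and 9.16 CPM in mutant normal, nearly all from the silicon channel gene Lsi1, with Lsi2 at 0 reads in both. The meristem marker OSH1 had 1 read in each library. The 3 glutelin genes of seed storage summed to 2.30 CPM in mutant drought and 5.60 CPM in mutant normal. In shoot RNA, fewer cells of a type and less RNA per cell cannot be told apart.

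The mutant drought library had 9.48 M reads over 29340 genes, and the mutant normal library had 12.2 M reads over 33599 genes. The other 4 RNA libraries had 10.0 to 13.5 M reads. Their TMM factors lay between 0.868 and 1.12, inside those of mutant drought (0.755) and mutant normal (1.21). The 4 genes with the most reads over the mutant libraries summed, none of them described in the tables, together took 11.1% of reads in mutant drought and 7.12% in mutant normal. The part of depth and of these genes in the ratios below was not tested beyond the other scalings given.

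In the mutant, 59.2% of the genes stood at least 2-fold apart between drought and normal growth. Below, a ratio is the log2 of CPM + 0.5 under drought over that under normal growth, and a gene counts as higher or lower when the ratio passes 2-fold. Of 22520 genes, 5960 (26.5%) were higher under drought and 7378 (32.8%) were lower, and the median ratio was -0.25. The upper side reached further: 835 genes were at least 16-fold higher and 539 at least 16-fold lower, while 60 were at least 256-fold higher and 7 at least 256-fold lower. Scaling by total counts moved the median by -0.59 and gave 4092 higher and 10344 lower genes, so that 28.3% of the counted genes were higher, against 44.7% under TMM. The deposited FPKM gave a share of 28.4%. Scaling by DESeq2 size factors moved the median by 0.14 and scaling by the upper quartile by -0.26. At the edge of the read filter, the 587 genes with 10 to 11 reads in the better library had a median ratio of -0.29 (middle 50% from -0.92 to 0.78), and the 388 genes with 9 to 9.5 reads, which were left out, had -0.32 (-0.84 to 0.67).

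**Figure D1:**
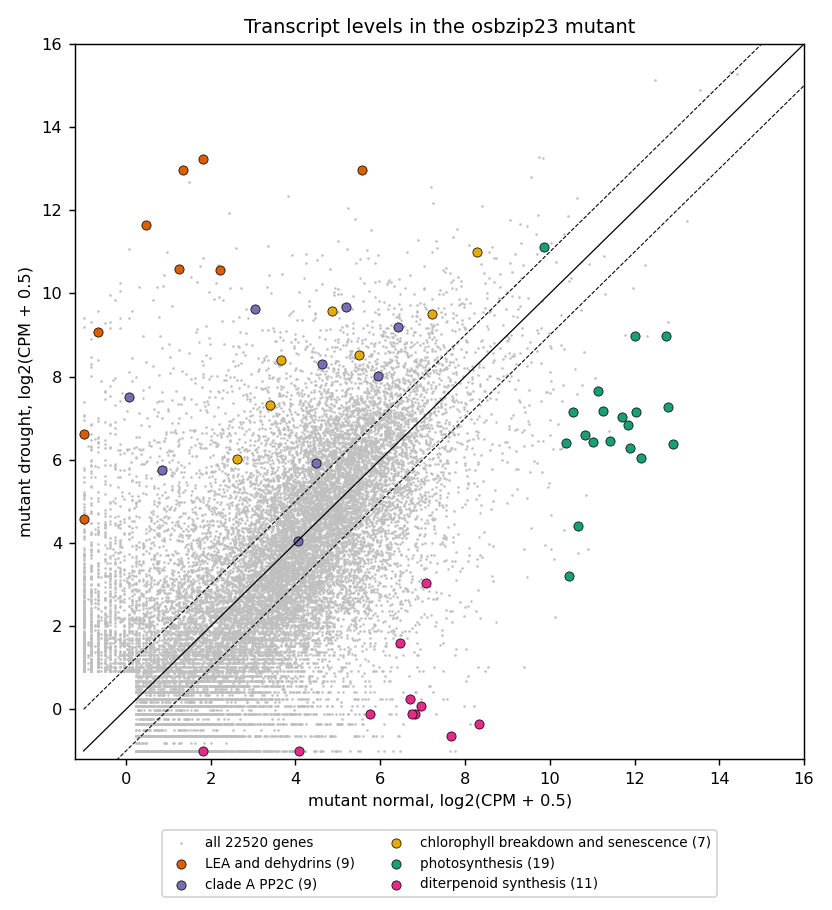
Each grey point is 1 of 22520 genes, with log2(CPM + 0.5) in mutant normal on the horizontal axis and in mutant drought on the vertical axis. The solid line marks equal levels and the dashed lines 2-fold differences. LEA and dehydrin genes lie at the upper left, photosynthesis genes at the right below the line apart from 1, and all 11 diterpenoid synthesis genes at the bottom.

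The clade A PP2C genes, whose products brake ABA signalling and are themselves ABA-induced, were higher under drought in 8 of 9 cases, with a median ratio of 3.70. Over all genes, 26.5% were higher and 32.8% lower. OsPP2C51 had 181 CPM in mutant drought and 0.543 CPM in mutant normal, a 334-fold difference (169–776). OsPP2C68 had 789 CPM in mutant drought and 7.80 CPM in mutant normal, and OsPP2C30 had 814 and 35.9 CPM in the same order. The drought library was the high one for each of the 3. OsPP2C08 was the exception, at 16.0 CPM in mutant drought and 16.1 CPM in mutant normal. The whole PP2C family, matched by the tables' descriptions, was far more even: of 55 genes with enough reads, 21 were higher and 12 lower, and its median of 0.48 turned negative under total counts.

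Of the 10 SnRK2 kinases, 5 were higher and 1 was lower under drought, against 26.5% and 32.8% of all genes. Their median ratio was 1.38, or 0.70 under total counts. SAPK1, which is known as a kinase activated by osmotic stress, had 382 CPM in mutant drought and 15.6 CPM in mutant normal. SAPK4 had 113 CPM in mutant drought and 11.2 CPM in mutant normal, and SAPK9, from the ABA-activated subclass, had 165 CPM in mutant drought and 23.2 CPM in mutant normal. SAPK7 was the low one, at 4.61 CPM in mutant drought and 10.7 CPM in mutant normal, a call lost with DESeq2 size factors or a 2 CPM pseudocount, where 0 of the list were lower. The ABA receptors showed little of this. Of 12 receptor loci only 5 had enough reads, 0 were higher and 1 was lower. That gene, LOC_Os03g18600, had 10 reads in mutant drought and 150 in mutant normal. The best read receptor, LOC_Os05g12260, stood at 88.1 CPM in mutant drought and 68.6 CPM in mutant normal, a ratio of 0.36.

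The ABF-type bZIP factors, OsbZIP23 among them, were higher under drought in 7 of 9 cases, against 26.5% of all genes, with a median of 2.67. OsbZIP12 had 464 CPM in mutant drought and 18.6 CPM in mutant normal, 25.0-fold apart (22.0–28.3). OsbZIP46, an activator of ABA-dependent drought genes, had 56.2 CPM in mutant drought and 3.19 CPM in mutant normal. TRAB1, which is known to be activated by phosphorylation in response to ABA, had 76.5 CPM in mutant drought and 14.5 CPM in mutant normal. OsABI5 had 119.5 reads in mutant drought and 0 in mutant normal, at least 82.0-fold higher when a floor of 3 counts stands for the empty library. OsbZIP62 was lower, with 4 reads in mutant drought and 57.5 in mutant normal. Among all 43 bZIP genes with enough reads, 25 were higher and 7 lower, against 26.5% and 32.8% of all genes.

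ABA synthesis genes split by member. NCED enzymes cleave epoxycarotenoids in the step that limits ABA synthesis. OsNCED4 had 913 CPM in mutant drought and 0.339 CPM in mutant normal, a 2692-fold difference (1153–8293) that rests on 5 reads in the normal library. OsNCED3, the member most often tied to water stress, had 127 CPM in mutant drought and 5.22 CPM in mutant normal, 24.2-fold apart (19.2–31.0). OsNCED5 had 91.1 CPM in mutant drought and 16.0 CPM in mutant normal. OsNCED1 went the other way, with 4.19 CPM in mutant drought and 1121 CPM in mutant normal, 268-fold lower (187–397), and OsNCED2 had no reads in either library. Around these, OsABA4 (ratio 1.94) and OsABA3 (1.16) were higher and the alcohol dehydrogenase gene OsABA2 was lower (-2.28). OsABA1, zeaxanthin epoxidase, had 342 CPM in mutant drought and 474 CPM in mutant normal. Over the list, 5 of 8 genes with enough reads were higher and 2 lower, against 26.5% and 32.8% of all genes.

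The 3 genes of ABA breakdown, which encode hydroxylases of the CYP707A family, pointed in different directions. OsABA8ox1 had 213 CPM in mutant drought and 8.55 CPM in mutant normal, 24.9-fold higher (20.7–30.1). OsABA8ox3 had 2.79 CPM in mutant drought and 30.9 CPM in mutant normal, 11.1-fold lower (7.09–18.3). OsABA8ox2 had 10.3 CPM in mutant drought and 19.3 CPM in mutant normal, short of 2-fold.

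**Figure D2:**
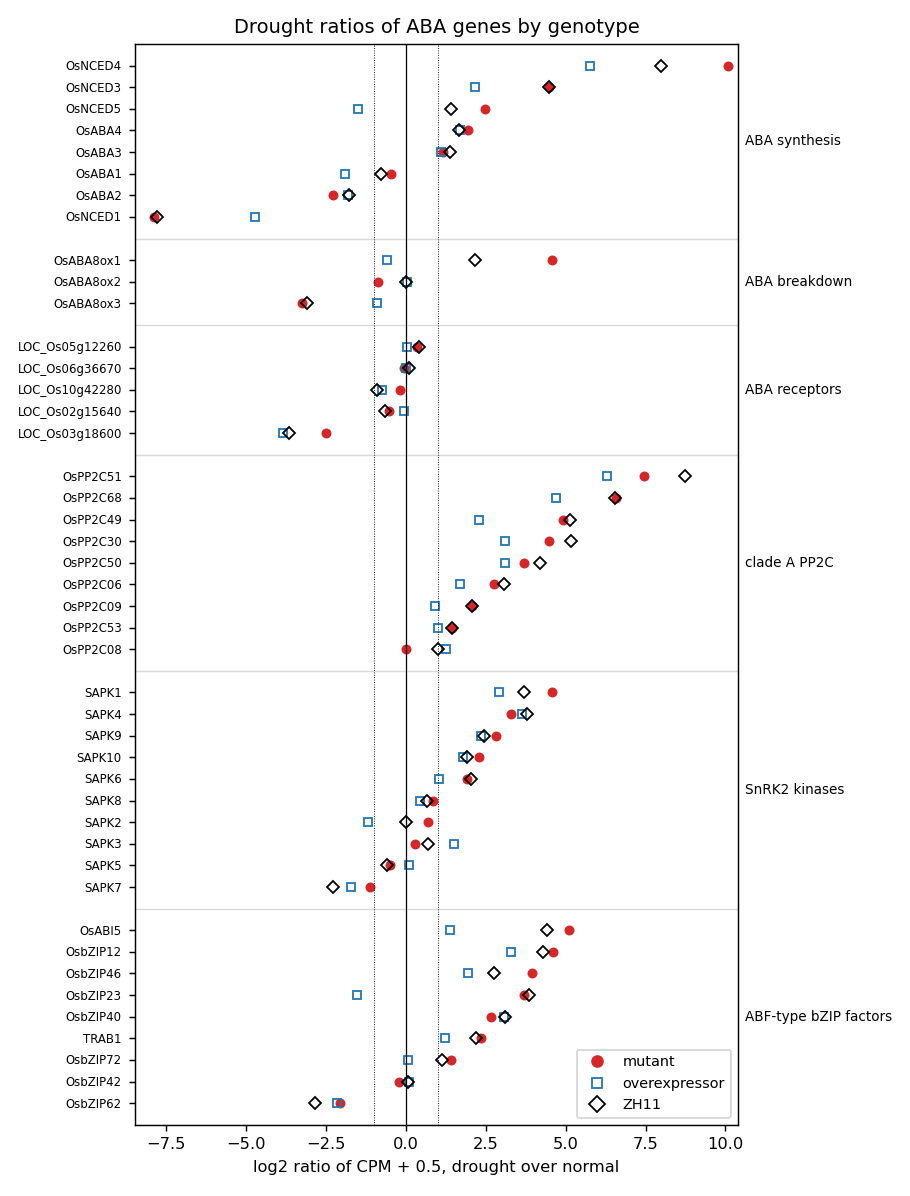
Each row is a gene of ABA synthesis, breakdown, reception or signalling with 10 or more reads in a mutant library, and the horizontal axis is its log2 ratio of CPM + 0.5, drought over normal. Filled circles are the mutant, open squares the overexpressor and open diamonds ZH11, 1 library a condition, and dotted lines mark 2-fold. OsNCED4 and OsNCED1 hold the ends in the mutant (10.09 and -7.90), and OsbZIP23 lies at -1.53 in the overexpressor against 3.68 in the mutant.

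All 9 LEA and dehydrin genes were higher under drought, with a median ratio of 9.32, against 26.5% of all genes. These proteins shield membranes and enzymes in drying cells. Together they took 2.47% of reads in mutant drought and 0.00713% in mutant normal. OsLEA3-1 had 57870 reads or 8082 CPM in mutant drought and 30 reads or 2.04 CPM in mutant normal, a 3971-fold difference (2781–5885). The dehydrin gene Rab16A had 9666 CPM in mutant drought and 3.05 CPM in mutant normal, and OsDhn1 had 8067 CPM in mutant drought and 47.0 CPM in mutant normal. OsLEA3-2 and OsEm1 had 0 reads in mutant normal and were at least 478-fold and 116-fold higher. The Rab16 genes are close copies, and how reads shared by copies were counted is not given, so their single values are uncertain. In the wider family matched by description, 36 of 54 genes with enough reads were higher and 7 lower; the lowest 2, LOC_Os04g33990 and LOC_Os03g62010, are described as LEA hydroxyproline-rich glycoproteins, a branch set apart from the classical LEA proteins.

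Of the genes for protective solutes, 5 of 9 were higher and 0 lower, against 26.5% and 32.8% of all genes. With the upper quartile 1 was lower, and with total counts or the deposited FPKM 3 were. OsGolS2, a galactinol synthase at the entry to raffinose, had 1222 CPM in mutant drought and 3.87 CPM in mutant normal, and the raffinose synthase gene RafS had 1011 CPM in mutant drought and 31.3 CPM in mutant normal. For proline, OsP5CS1 had 246 CPM in mutant drought and 36.0 CPM in mutant normal, and OsP5CS2 had 31.1 CPM in mutant drought and 6.75 CPM in mutant normal. OsProDH, which degrades proline, had 21.8 and 31.5 CPM in those libraries. Under total counts 3 members of the list became lower.

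Of 18 stress transcription factors, 14 were higher and 3 lower, against 26.5% and 32.8% of all genes, with a median ratio of 5.04. The homeobox gene OsHOX24 had 1142 CPM in mutant drought and 0.746 CPM in mutant normal, a 1530-fold difference (855–3066). SNAC1, a NAC factor that acts in stomatal closure, had 2475 CPM in mutant drought and 31.4 CPM in mutant normal. OsNAC6 had 6000.1 CPM in mutant drought and 147 CPM in mutant normal, and AP37 had 279 and 8.21 CPM. OsDREB1A had 220 reads in mutant drought and 1 in mutant normal, a ratio of counts with a wide interval (453-fold, 80.4–17966). The lower genes were DST, a zinc finger factor that restrains stomatal closure, with 1.82 CPM in mutant drought and 42.4 CPM in mutant normal, OsWRKY45, a defence regulator, with 15.4 and 132 CPM, and OsMYB48-1, with 3 and 41 reads.

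Photosynthesis genes were low in the mutant drought library. Of 19 genes with enough reads, 18 were lower and 1 was higher, against 32.8% and 26.5% of all genes. The median ratio was -4.66, and the list took 0.367% of reads in mutant drought and 7.63% in mutant normal. RbcS (LOC_Os12g17600) was 93.0-fold lower (85.8–101). Lhcb6, a minor antenna protein of photosystem II, had 8.66 CPM in mutant drought and 1393 CPM in mutant normal, 161-fold lower (125–210). PsbO, of the water-splitting complex, was least lowered, with 507 CPM in mutant drought and 4112 CPM in mutant normal. The exception was Rca, the chaperone that reactivates Rubisco, with 2219 CPM in mutant drought and 935 CPM in mutant normal, 2.37-fold higher (2.32–2.43). Under total counts, the upper quartile or the deposited FPKM, 0 members of the list were 2-fold higher. Another Lhcb1 locus had 0 reads in both libraries, and RbcS and Lhcb1 copies may share reads.

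Chlorophyll genes divided by the direction of the pathway. Of 8 synthesis genes 7 were lower and 0 higher (median -3.20), and of 7 genes for breakdown and senescence 7 were higher (median 3.40). Over all genes, 32.8% were lower and 26.5% higher. OsPORA, the light-dependent protochlorophyllide reductase, had 3.77 CPM in mutant drought and 208 CPM in mutant normal. OsCAO1, which makes chlorophyll b, was the exception, at 125 CPM in mutant drought and 92.7 CPM in mutant normal. On the breakdown side, SGR (Stay-Green) had 770 CPM in mutant drought and 28.6 CPM in mutant normal, 27.0-fold higher (24.4–29.8). The senescence factor gene OsNAP had 338 CPM in mutant drought and 12.1 CPM in mutant normal. NYC1, a chlorophyll b reductase, had 2035 CPM in mutant drought and 312 CPM in mutant normal.

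The glyoxylate cycle, which turns stored fat into sugar, held some of the widest differences. Isocitrate lyase (ICL), which opens the glyoxylate cycle, had 2166 CPM in mutant drought and 0.543 CPM in mutant normal. Malate synthase (MLS) had 759 CPM in mutant drought and 0.611 CPM in mutant normal. LOC_Os12g27830, described as hydroxysteroid dehydrogenase 1, had 1205 reads in mutant drought and 0 in mutant normal, at least 827-fold higher. These 3 of 5 listed genes had enough reads, and their median of 9.42 became 9.69 with the empty library at its floor. The oleosin genes OLE16 and OLE18 had 1 and 0 reads in mutant drought and 0 in mutant normal.

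**Figure D3:**
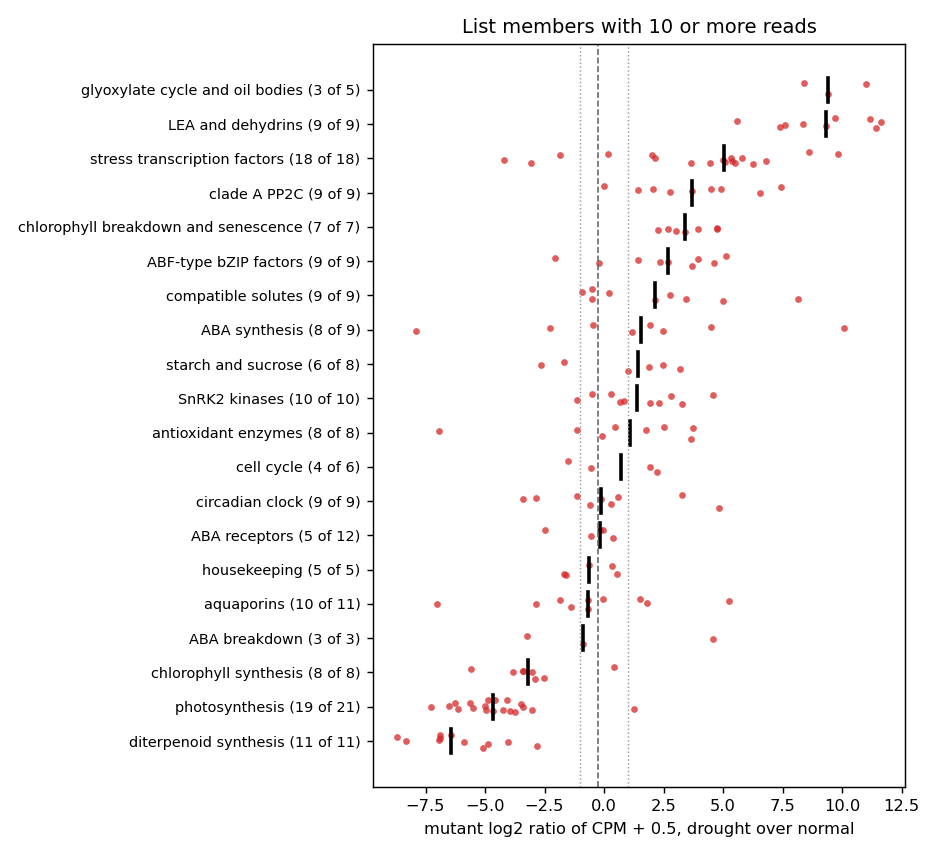
Each point is a list member with 10 or more reads in a mutant library, placed by its mutant log2 ratio of CPM + 0.5, drought over normal. Thick bars are list medians, the dashed line is the median of all genes (-0.25) and dotted lines mark 2-fold. Numbers after each name count the members with enough reads among those listed. The median of the circadian clock list changed sign under DESeq2 size factors.

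Among antioxidant enzymes 4 of 8 were higher and 2 lower, against 26.5% and 32.8% of all genes, or 1 lower with DESeq2 size factors. The superoxide dismutase gene SodCc2 had 1390 CPM in mutant drought and 104 CPM in mutant normal. Catalase genes diverged: CatB had 1626 CPM in mutant drought and 130 CPM in mutant normal, whereas CatA had 13.0 CPM in mutant drought and 1634 CPM in mutant normal, 126-fold lower (103–156). CatC had 779 and 1699 CPM in those libraries.

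Among aquaporins, the water channels, 3 of 10 were higher and 4 lower, near the 26.5% and 32.8% of all genes. OsPIP1-2 had 742 CPM in mutant drought and 210 CPM in mutant normal, and OsPIP2-1 had 282 and 98.0 CPM. The seed-type tonoplast channel gene OsTIP3-1 had 134.5 reads in mutant drought and 0 in mutant normal. OsPIP2-7 had 14.0 CPM in mutant drought and 1899 CPM in mutant normal, 136-fold lower (112–167), and it stood far from the other 3 low members, whose ratios ran from -1.40 to -2.85.

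Of 9 circadian clock genes 2 were higher and 3 lower, near the 26.5% and 32.8% of all genes. Stressed and unstressed plants were harvested together, per the labels. The morning gene OsLHY had 336 CPM in mutant drought and 11.2 CPM in mutant normal, and OsTOC1, its evening partner, had 9.29 CPM in mutant drought and 104 CPM in mutant normal. OsGI had 1332 and 1460 CPM in those libraries. In sugar metabolism, OsSPS1 (sucrose phosphate synthase) had 250 CPM in mutant drought and 44.0 CPM in mutant normal, and the sucrose transporter gene OsSUT1 had 216 and 23.2 CPM, while OsSUS1 and the leaf starch synthase gene GBSSII were lower (-2.67 and -1.66). That list counted 3 higher and 2 lower of 6. The 4 cell cycle genes with enough reads had 2 higher and 1 lower, all under 15 CPM, and 0 were higher with a minimum of 50 reads. Among genes often used as references, Act1 had a ratio of 0.35, which turned negative under total counts, while UBQ5 and GAPDH were more than 2-fold lower (-1.69 and -1.60).

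The diterpenoid list showed the lowest median of all, -6.45, with all 11 genes lower under drought, against 32.8% of all genes. These enzymes make momilactones and phytocassanes, the antimicrobial phytoalexins of rice, and their genes stand in a cluster on each of chromosomes 4 and 2. The entry enzyme gene OsCPS4 had 2 reads in mutant drought and 4706 in mutant normal, or 0.279 and 319 CPM. OsCPS2 had 1 and 2982 reads, and OsKSL7 had 4 and 1838 reads in the same order. CYP99A3 and OsKSL6 had 0 reads in mutant drought and were at least 39.4-fold and 7.29-fold lower. The P450 genes of each cluster include close copies, so reads may be shared among them. All 11 drought levels were under 10 CPM, and in mutant normal 10 genes lay above 10 CPM. The list took 0.000996% of reads in mutant drought and 0.153% in mutant normal.

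Beyond the lists, the 12 described genes furthest up with at least 200 reads included OsLEA3-1, Rab16A, ICL and OsNCED4, already named, and Rab16B. LOC_Os01g24710, a mannose-binding lectin, had 6532 CPM in mutant drought and 2.31 CPM in mutant normal. LOC_Os06g46740, an early nodulin-like protein, had 2038 CPM in mutant drought and 1.46 CPM in mutant normal. LOC_Os03g17790, described as responsive to low temperature and salt, had 1214 and 0.407 CPM. LOC_Os02g26720, an inositol phosphate kinase, had 4854 reads in mutant drought and 0 in mutant normal, at least 3330-fold higher. The others were LOC_Os03g04080 (transcription activator-related, ratio 10.35), LOC_Os03g07180 (a LEA domain protein, 10.21) and LOC_Os04g33920 (a lipid transfer protein, 10.14, with 1 read in mutant normal).

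The 12 furthest down held 4 terpenoid genes. Besides OsCPS4 and OsCPS2 these were LOC_Os02g02930 (terpene synthase 14, 0 reads in mutant drought and 2960 in mutant normal) and LOC_Os08g07080 (a terpenoid cyclase, 10 reads in mutant drought and 5239 in mutant normal). OsNCED1 was among them. LOC_Os07g43560 and LOC_Os07g43570, neighbours by locus number and both described as cysteine-rich receptor-like kinases, had ratios of -8.37 and -8.13. The peroxidase LOC_Os07g48020 had 2 reads in mutant drought and 4112 in mutant normal. LOC_Os01g74160, of unknown function, had 0 and 3171.5 reads and was at least 514-fold lower. LOC_Os12g27220 (an acyltransferase, -7.89), LOC_Os10g37180 (a single hybrid motif protein, -7.52) and LOC_Os08g33740 (a sugar transferase, at least 210-fold lower) completed the set.

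By number of reads, the most read described genes of mutant drought were a thioredoxin H gene (LOC_Os07g08840, 10021 CPM in mutant drought and 853 CPM in mutant normal), metallothionein 2A (LOC_Os01g05650, 9802 and 917 CPM), Rab16A and OsLEA3-1. In mutant normal they were RbcS, the thiamine synthesis gene LOC_Os07g34570 (640 CPM in mutant drought and 7114 CPM in mutant normal) and 2 Lhcb1 genes. None of the described genes stood in both sets, while 3 undescribed genes did.

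Among gene families matched by description, those of translation were low. Of 353 ribosomal protein genes with enough reads, 21 were higher and 221 lower (median -1.26), against 26.5% and 32.8% of all genes. Of 52 tRNA synthetase genes 1 was higher and 29 were lower (-1.28). In protein turnover, 11 of 17 autophagy genes were higher and 1 lower (1.42), with ATG18-like LOC_Os05g07710 at 43.8 CPM in mutant drought and 0.678 CPM in mutant normal. Proteasome genes counted 9 higher and 1 lower of 41, and their median of 0.42 turned negative under total counts. Heat shock and chaperone genes counted 103 higher and 48 lower of 230 (0.70), led by 2 small heat shock (HSP20-like) genes. LOC_Os03g16030 had 1350 CPM in mutant drought and 2.37 CPM in mutant normal, and LOC_Os04g36750 had 962 and 0 reads.

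Transcription factor families differed in their balance, against 26.5% of all genes higher and 32.8% lower. NAC genes counted 36 higher and 10 lower of 63 (median 1.43), AP2/ERF genes 29 and 11 of 58 (0.99), and MYB genes 44 and 19 of 98 (0.64). WRKY genes, many of them defence regulators, counted 31 and 19 of 69 and homeobox genes 49 and 34 of 125, with medians of 0.52 and 0.59 that turned negative under total counts. The bHLH genes counted 22 and 23 of 70, close to all genes, with a median of 0.08 that turned negative under total counts and the upper quartile. The lowest ratio among its members with at least 200 reads was that of LOC_Os01g01840, with 1 read in mutant drought and 1274 in mutant normal.

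Families of surface receptors and secondary metabolism are set here against the same shares of all genes and their median of -0.25. Receptor kinases counted 96 higher and 312 lower of 604 (median -1.08, or -0.96 with empty libraries at their floor). Peroxidases, with 19 and 32 of 81 (-0.39), stood near all genes. Cytochromes P450 counted 57 and 93 of 201 (-0.74) and terpene synthases 2 and 20 of 25 (-4.47, or -4.65 at the floor). Among the 2 higher members was LOC_Os04g27670, described as terpene synthase 21, with 691 CPM in mutant drought and 1.22 CPM in mutant normal. Glutathione S-transferases counted 16 and 23 of 63 (-0.24) and UDP-glycosyltransferases 47 and 49 of 154 (-0.25), both near the median of all genes.

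Set against the 26.5% of all genes higher and 32.8% lower, wall genes showed no single direction. Cellulose synthases counted 2 higher and 10 lower of 17 (-1.04), expansins 3 and 5 of 11 (-0.98), laccases 4 and 6 of 11 (-1.99, or -1.83 at the floor, but 0.64 with a minimum of 50 reads) and tubulins 2 and 6 of 22 (-0.47). Xyloglucan enzymes counted 7 and 4 of 13 (1.02). Pectin enzymes counted 15 and 12 of 45, with a median of 0.03 that turned negative under total counts and the upper quartile. Lipid transfer and albumin-like genes counted 33 and 15 of 55 (1.70), led by LOC_Os04g33920 above and by LOC_Os05g47730, with 572 CPM in mutant drought and 0.271 CPM in mutant normal.

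Photosystem genes by description counted 10 higher and 54 lower of 82 and light-harvesting genes 5 and 14 of 21 (-3.76). LOC_Os07g05365, described as photosystem II subunit R, was an exception, with 89.4 CPM in mutant drought and 0.102 CPM in mutant normal. Histone genes counted 13 higher and 0 lower of 41, with a median of 0.51 that turned negative under total counts. Transporters of amino acids counted 27 and 23 of 64 (0.67, or 0.02 under total counts) and of sugars 43 and 62 of 170 (-0.15). The shares of all genes were 26.5% higher and 32.8% lower, and the sugar transporters stood near them.

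The genes of other hormones counted as follows, against 26.5% of all genes higher and 32.8% lower. Auxin response genes counted 19 higher and 24 lower of 71 (-0.15), and cytokinin and two-component genes 8 and 11 of 27 (-0.14). Jasmonate genes counted 7 and 11 of 27, with a median of 0.40 that turned negative under total counts. There the JAZ repressor gene LOC_Os03g08320 had 838 CPM in mutant drought and 33.6 CPM in mutant normal, while the lipoxygenase 2 gene LOC_Os12g37260 had 79.7 and 3763 CPM. Gibberellin genes counted 8 and 5 of 17, with a median of 0.26 that turned negative under total counts and the upper quartile. In that list gibberellin 2-oxidase 8 (LOC_Os02g41954), an enzyme that inactivates the hormone, had 142 CPM in mutant drought and 3.26 CPM in mutant normal, and LOC_Os06g37300, listed there by its description alone (GA requiring 3), had 29.8 CPM in mutant drought and 331 CPM in mutant normal.

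The mutant ratios were set beside those of the overexpressor and ZH11, which share no library with them. Of the 5960 genes higher in the mutant, 4730 were also higher in ZH11, which is 79.4% of the mutant set and 82.0% of the ZH11 set of 5770 (25.0% of genes there). Of the 7378 lower in the mutant, 5450 were lower in ZH11, 73.9% of the mutant set and 79.9% of the ZH11 set of 6825 (29.6%). For the overexpressor, with 4497 higher (20.0%) and 4599 lower (20.5%), the shared genes made up 58.2% of the mutant's higher set and 47.8% of its lower set. Across genes the mutant ratios had a Pearson r of 0.93 with ZH11 ratios (21800 genes) and 0.84 with overexpressor ratios (21252 genes). Genes within a library are not independent, so these describe the libraries. Over the genes shared with the overexpressor, the median size of the ratio was 1.23 in the mutant, against 0.78 in the overexpressor. For genes shared with ZH11 it was 1.24 in the mutant, against 1.11 in ZH11. Only 32 genes (0.147%) passed 2-fold in opposite directions in the mutant and ZH11.

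Side by side, some of the lists gave these medians. The LEA and dehydrin median was 9.32 in the mutant, 8.26 in the overexpressor and 9.52 in ZH11. The clade A PP2C median was 3.70 in the mutant, 2.29 in the overexpressor and 4.18 in ZH11. The ABF-type bZIP median was 2.67, 0.66 and 2.74 in that order, over 9, 8 and 9 genes with enough reads. That list includes OsbZIP23 itself, at -1.53 in the overexpressor. The photosynthesis median was -4.66, -3.65 and -4.75 in the same order. Members departed from this in both directions. OsPP2C51 reached 7.45 in the mutant, against 8.73 in ZH11, with 181 CPM in mutant drought and 399 CPM in ZH11 drought. OsP5CS2, a proline synthesis gene, had 31.1 CPM in mutant drought, 295 CPM in overexpressor drought and 126 CPM in ZH11 drought, and ratios of 2.13, 5.19 and 4.41. OsABA8ox1 reached 4.56 in the mutant, against 2.17 in ZH11, with 8.55 CPM in mutant normal and 31.1 CPM in ZH11 normal. The lectin gene LOC_Os01g24710 reached 11.18 in the mutant, against 7.96 in ZH11, with 6532 CPM in mutant drought and 925 CPM in ZH11 drought. OsNCED4 had 10.09 and 7.98, with 5 reads in mutant normal. Whether any of these gaps exceeds plant-to-plant spread was not tested.

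Over all 21800 genes read in both genotypes, the mutant ratio was at least 1 log2 unit above the ZH11 ratio for 1833 (8.41%) and at least 1 below it for 1579 (7.24%), with a median difference of -0.02. Higher differences made up 53.7% of these under TMM, against 28.3% under total counts (1101 higher, 2788 lower) and 29.2% in the deposited FPKM (1516 and 3676). Among the lists, stress transcription factors had 4 of 18 above and 0 below, and NAC genes 17 of 61 above and 2 below. This was not particular to stress factors: expansins had 6 of 11 above and 1 below, and xyloglucan enzymes 6 of 12 above and 1 below. Receptor kinases had 47 of 556 above and 63 below, with a median difference of 0.02, near that of all genes. A difference of ratios can come from either stress state. Of the 1833, 1082 had the larger mutant to ZH11 gap in the drought libraries, and of the 1579, 1128 did. Over all 21800 genes 13108 did, so the 1082 lie near the share of all genes.

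The diterpenoid list ran against that balance. Its median ratio was -6.45 in the mutant, -2.49 in the overexpressor and -3.28 in ZH11, and 10 of 11 members were at least 1 below ZH11. For all 11 the larger gap lay in the normal libraries, with a median of 3.06 log2 units there and 0.13 under drought. Over all 21800 genes, 8692 had the larger gap in the normal libraries. The 11 genes together had only 94.5 reads in mutant drought, and the pseudocount of 0.5 CPM shrinks gaps between such low levels. The split by stress state therefore cannot show whether the genotypes were alike under drought. OsCPS4 had 319 CPM in mutant normal, 17.3 CPM in overexpressor normal and 38.5 CPM in ZH11 normal. CYP76M8 had 88.5, 0.660 and 3.29 CPM in those libraries. Under drought all 3 genotypes were low, with OsCPS4 at 0.279 CPM in the mutant, 0.197 CPM in the overexpressor and 0.256 CPM in ZH11. The list took 0.153% of reads in mutant normal and 0.0157% in ZH11 normal. The mutant normal library is thus the one that stands apart for these genes, and with 1 library the genotype and the particular plants cannot be told apart.

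**Figure D4:**
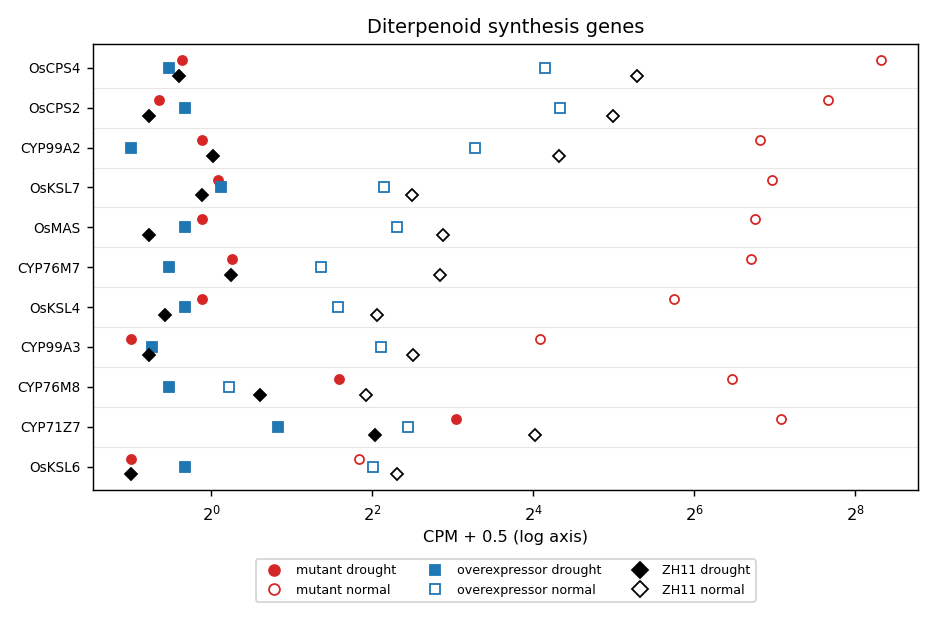
Levels of the 11 diterpenoid synthesis genes in the 6 RNA libraries, as CPM + 0.5 on a log axis. Circles are the mutant, squares the overexpressor and diamonds ZH11, filled for drought and open for normal. For 10 genes the open circle of mutant normal lies furthest right, and OsKSL6 is the exception.

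The 10 described genes furthest below ZH11 had at least 200 reads over the 4 libraries. In 9 of them the larger gap also lay in the normal libraries, where the median gap of the 10 was 5.20 log2 units. They were picked by a difference of ratios that contains this gap, so they add no support to the diterpenoid pattern. The laccase 7 gene LOC_Os11g42200 had 0.838 CPM in mutant drought and 151 CPM in mutant normal, against 0.0852 CPM in ZH11 drought and 0.658 CPM in ZH11 normal. The terpene synthase 21 gene LOC_Os07g11790 and the P450 gene LOC_Os07g11739 had 25.3 and 38.2 CPM in mutant normal, and 0.0732 and 0.293 CPM in ZH11 normal. The terpenoid cyclase gene LOC_Os12g30824 had 43.5 CPM in mutant normal and 0.146 CPM in ZH11 normal. A transferase gene for pyridoxal phosphate (LOC_Os08g04540) had 41.2 and 0.219 CPM there, and a hydroxycinnamoyl transferase gene (LOC_Os04g56910) had 214 reads in mutant normal and 0 in ZH11 normal. LOC_Os09g36680 (ribonuclease 3) was 424 CPM in mutant drought and 387 CPM in mutant normal, while ZH11 had 653 CPM under drought and 26.4 CPM under normal growth. LOC_Os01g24010 (pleiotropic drug resistance 12) stood at -1.79 in the mutant, against 2.68 in ZH11. The cupin gene LOC_Os03g46100 was the 1 case with its gap in the drought libraries, at 0.559 CPM in mutant drought and 22.1 CPM in ZH11 drought. OsKSL7 of the diterpenoid list made up the 10.

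The 10 furthest above ZH11 comprised genes that were high in mutant drought and genes that were low in mutant normal. In the first set, LOC_Os04g56430, a cysteine-rich receptor-like kinase, had 483 CPM in mutant drought and 0.0678 CPM in mutant normal, against 17.0 CPM in ZH11 drought and 0.0732 CPM in ZH11 normal. LOC_Os12g08760, of the phosphoenolpyruvate carboxylase family, had 477 CPM in mutant drought and 15.5 CPM in mutant normal, against 50.7 and 47.5 CPM in ZH11 drought and normal. LOC_Os02g14720, a RING/U-box protein, had 227 CPM in mutant drought, 269 CPM in overexpressor drought and 8.69 CPM in ZH11 drought, so that ZH11 drought was the low library. LOC_Os01g63690 had 144 CPM in mutant drought and 17.8 CPM in ZH11 drought. LOC_Os06g50950, a GDSL lipase, had 65 reads in mutant drought and 0 in ZH11 drought. In the second set, the laccase 7 gene LOC_Os01g63190 had 4.92 CPM in mutant normal, 158 CPM in overexpressor normal and 199.9 CPM in ZH11 normal. The lipid transfer gene LOC_Os03g14654 had 1.22 CPM in mutant normal and 28.1 CPM in ZH11 normal, and the bHLH gene LOC_Os01g38610 had 0.611 and 18.5 CPM there. OsDREB1A, a cold and drought factor, differed in both states, with 30.7 CPM in mutant drought and 5.33 CPM in ZH11 drought, and 1 read in mutant normal against 3.88 CPM in ZH11 normal. LOC_Os01g02940, a glycosyltransferase, also differed in both, with 3.07 CPM in mutant drought and 0.341 CPM in ZH11 drought.

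**Figure D5:**
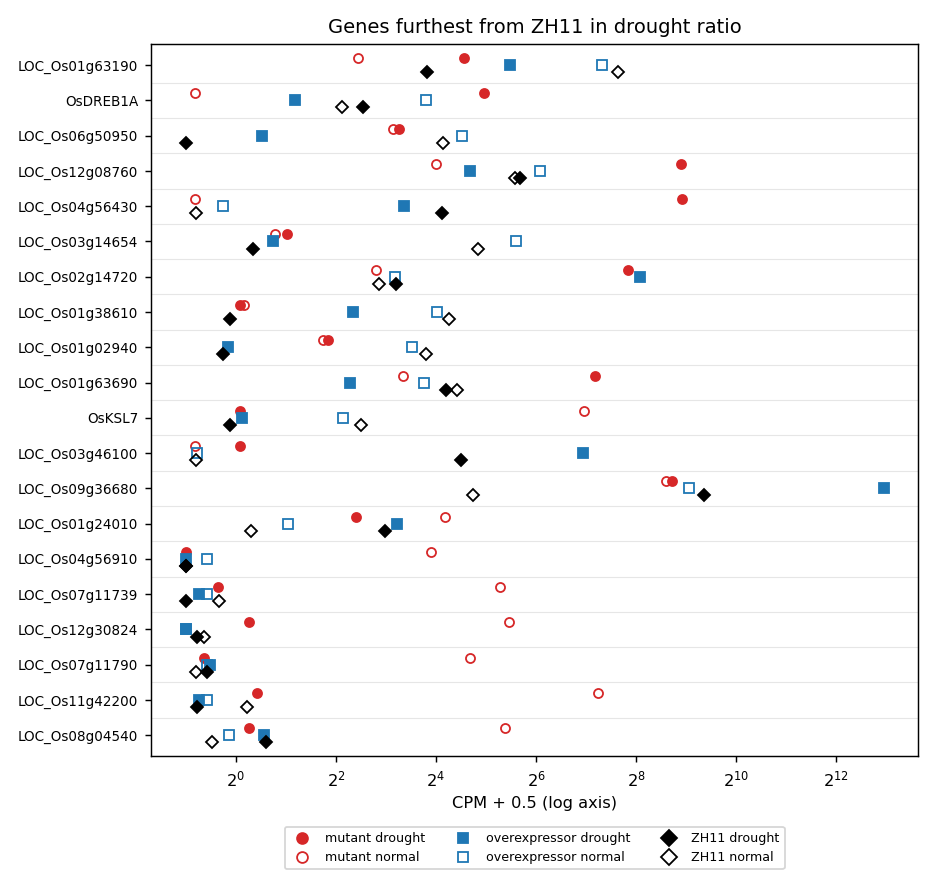
Levels in the 6 RNA libraries of the 20 genes whose mutant drought ratio lay furthest from that of ZH11, as CPM + 0.5 on a log axis, with the 10 above ZH11 on top. Circles are the mutant, squares the overexpressor and diamonds ZH11, filled for drought and open for normal. In the lower 10 rows the open circle of mutant normal stands to the right of the open diamond in 9.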

How the data were processed

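RNA of 6 groups, 1 library each, was used; 3 ChIP libraries were not used here. The authors deposited a read number and FPKM per gene, per the file headers. The deposited read numbers come in steps of 0.5 and were handled here like expected counts, an assumption since their counter is not named. Per the submitters' processing notes, the tools were edgeR 3.6.0, TopHat2 2.0.8 and Trimmomatic 0.32; the genome build, annotation, read counter and use of strand are not given in the sources used here, so overlapping and antisense genes cannot be told apart. Of 56001 lines, 15 repeated names were summed. TMM (trimmed mean of M-values) factors came from edgeR 4.0.16 (R 4.3.3) over the 21409 genes passing filterByExpr by stress, on counts rounded to whole numbers. Ratios use CPM with a pseudocount of 0.5 over genes with 10 or more reads in either library of a genotype. No comparison was tested, since groups have 1 library, and DESeq2 1.42.0 served only for size factors. Depth was 9.48 to 13.5 M reads; intervals are exact at 95% on rounded reads, and a library at 0 reads is put at 3 counts per library. The ratio was tested on simulated counts in which few genes changed, equally up and down. Most genes here stood 2-fold apart, so that test cannot show how the scaling fares on these data.

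The members and gene lists were chosen with earlier results of these data known. There were 23 lists of loci with symbols from general knowledge of the rice literature (195 loci, 1 left out because its description names another protein, 1 absent from the tables) and 36 lists drawn by words from the gene descriptions, after 2 whose words matched unrelated genes were dropped. Named genes are list members with the largest ratios, the 12 described genes each way with at least 200 reads, the 10 each way furthest from ZH11, the 8 most read genes of each mutant library and 2 each way per word list, of which some are printed. Exceptions, best read members and reference genes were named after their values were seen. The read filter, pseudocount and scaling were varied, and FPKM were tried.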

Additional observations from a re-analysis of the deposited data

Results flagged for a closer look

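Among the named genes, 9 stood at least 2-fold higher or lower under drought in the mutant and at least 2-fold the other way in the overexpressor or in ZH11. Over all 21800 genes read in the mutant and ZH11, 32 (0.147%) did so between these 2. Of the 5960 genes higher in the mutant, 73 (1.22%) were lower in the overexpressor, and of the 7378 lower, 59 (0.80%) were higher there. Several of the 9 were named because their ratio lay furthest from ZH11, so their opposition partly reflects that choice. With 1 library a group the difference between genotypes was not tested, and the values are log2 ratios of drought over normal growth.

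In 7 of them the mutant ratio was positive and the overexpressor ratio negative. OsbZIP23 had 3.68 in the mutant and -1.53 in the overexpressor, whose normal library held 1320 CPM of it. OsNCED5, an ABA synthesis gene, had 2.47 in the mutant and -1.49 in the overexpressor. OsDREB1A had 5.78 in the mutant, on 1 read in mutant normal, and -2.62 in the overexpressor. Rca, the Rubisco activase gene, had 1.25 in the mutant and -1.29 in the overexpressor. Under total counts, the upper quartile or the deposited FPKM, Rca was not 2-fold higher in the mutant. LOC_Os12g08760 had 4.90 and LOC_Os01g63690 had 3.84 in the mutant, and -1.38 and -1.49 in the overexpressor. The laccase gene LOC_Os01g63190 had 2.12 in the mutant, -1.82 in the overexpressor and -3.82 in ZH11.

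In the other 2 the mutant ratio was negative. LOC_Os01g24010, described as pleiotropic drug resistance 12, had -1.79 in the mutant, 2.17 in the overexpressor and 2.68 in ZH11. LOC_Os08g04540 had -5.12 in the mutant and 1.08 in ZH11, where it had 12 reads under drought and 3 under normal growth.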

How the results depend on the processing

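No paired analysis was possible because each group had 1 library, and for the same reason no library could be left out. The counts of genes 2-fold higher (4092 to 6639) and lower (5173 to 10808) stayed within 1.5 times those reported under every setting tried. The median ratio of all genes was -0.11 with DESeq2 size factors, -0.84 with total counts, -0.51 with upper-quartile factors, -0.22 with TMM from the mutant libraries alone, -0.20 with a minimum of 50 reads, -0.18 with no filter, -0.19 with a 2 CPM pseudocount and -0.91 with deposited FPKM. The number of genes at least 1 log2 unit above and below the ZH11 ratio was 1101 and 2788 with total counts, 1194 and 964 with 50 reads, 1114 and 680 with a 2 CPM pseudocount, and 3676 below with FPKM. Of 320 list counts under other settings, 299 stayed within 1.5 times. With total counts there were 2 lower SnRK2, ABA breakdown, ABA receptor and cell cycle genes each and 3 lower solute genes. The upper quartile gave 2 lower ABA breakdown genes and 1 lower solute gene. FPKM gave 2 lower SnRK2, ABA breakdown, ABA receptor and cell cycle genes each and 3 lower solute genes. Photosynthesis had 0 higher genes in all 3. DESeq2 size factors gave 0 lower SnRK2 and 1 lower antioxidant gene. A 2 CPM pseudocount gave 0 lower SnRK2 and 1 higher cell cycle gene, a minimum of 50 reads gave 0 higher cell cycle genes, and no filter gave 2 lower ones. The cause was not tested. The median of the laccase list turned to 0.64 with 50 reads, since fewer of its genes were left. Of 640 ratios of the 80 named genes under these settings, 80 moved by more than their counting interval, and none of the genes past 2-fold changed sign. Comparing genes near OsbZIP23 peaks with others, planned with 2 alternatives, was not run for want of gene coordinates. Depth limits the low genes: the receptor gene LOC_Os03g18600, with 10 and 150 reads, has an interval from 3.85-fold to 15.5-fold lower.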
